A study of Mus musculus with 5 samples.

Results

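Polycomb group proteins keep developmental genes silent. They act as a pair of chromatin complexes: Polycomb repressive complex 2 (PRC2), in which Ezh1 or Ezh2 methylates histone H3 at lysine 27 with the help of Eed and Suz12, and Polycomb repressive complex 1 (PRC1), in which Ring1 or Rnf2 ubiquitinates histone H2A. In the early mouse embryo both complexes sit on CpG-rich promoters of lineage regulators that are not yet in use, and loss of a PRC2 core subunit arrests development around gastrulation. The 10 genes described here encode 6 subunits of PRC2 (Ezh2, Ezh1, Eed, Suz12, Mtf2 and Jarid2) and 4 subunits of PRC1 (Rnf2, Ring1, Cbx7 and Pcgf6). They were found by gene name, as 10 of the 49671 genes in the deposited count table, and each name matched a single gene.

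RNA was sequenced from 5 single mouse embryos at about E6.75, soon after the onset of gastrulation. SO− embryos (genotype Sox2Cre+/-; Oct4 fl/-, 3 embryos) had lost Oct4, encoded by Pou5f1, through a Cre recombinase under the Sox2 promoter, which recombines mainly in the epiblast. SO+ embryos (WT; Sox2Cre-/-; Oct4 fl/+, 2 embryos) carried no Cre, so that Cre itself and Oct4 loss cannot be told apart, and all embryos were on a mixed strain background. Each library was made from epiblast and visceral endoderm (VE) of 1 embryo, the VE being the extra-embryonic layer around the epiblast, in which this Cre is largely inactive. The comparison asked whether the transcripts of the Polycomb machinery changed when Oct4 was removed.

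Pou5f1 was at 919.5 and 437 CPM in the SO+ embryos and at 28.01, 12.5 and 44.1 CPM in the SO− embryos, a log2 fold change of -4.43 (SE 0.33, edgeR adjusted p = 3.94e-05), lower in 3 of 3 SO− embryos as labelled. CPM values throughout are counts per 1000000 counts of the tested genes in the library, after TMM scaling. Totals were 27538119 and 27047148 counts for SO+ and 4134617, 1117566 and 4191498 counts for SO−. A level of 3 counts therefore corresponded to 0.109 to 0.111 CPM in SO+ and to 0.723 to 2.68 CPM in SO−, which covers counting error only. The second sequencing index also differed between the genotypes, so that index and genotype cannot be told apart. The summed level of 8 epiblast markers was 6452 and 5207 CPM in SO+ against 2826, 2450 and 3560 CPM in SO−. Of these markers, 3 fell past the edgeR threshold (Pou5f1, Dnmt3b and Utf1), against 0.928% of all genes tested. The sum, the median and the counts of this set include Pou5f1, the deleted gene, whose fall was set by the design. Dnmt3b alone made 3980 and 3276 CPM of that sum in SO+ and 1720, 1443 and 2310 CPM in SO−. By log2 fold change, 6 of the 8 were below 0 (median -0.62), against 6070 of the 12067 genes tested. The other 2 were above 0: Fgf5 had 0.38 (edgeR adjusted p = 0.274). Sox2, at 7.48 and 7.91 CPM in SO+ and 10.7, 9.82 and 13.0 CPM in SO−, had 0.56 (adjusted p = 0.514). The 10 VE markers summed to 2545 and 2797 CPM in SO+ and to 3989, 3829 and 2447 CPM in SO−. None of the 10 passed the edgeR threshold, against 2.35% of all genes tested. All 10 had a log2 fold change above 0 (median 0.41), against 5997 of the 12067 genes tested. An unadjusted edgeR p under 0.05 was found for 4 of the 10, against 13.7% of all genes. In these mixed samples fewer cells of a type and less RNA per cell cannot be told apart. Extra-embryonic ectoderm markers (6 genes) summed to 11.1 to 18.7 CPM and immune and maternal markers (7 genes) to 8.92 to 13.99 CPM, with Ptprc, Tyrobp and Prl8a2 at 0 in every embryo.

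The 10 genes lie on 9 chromosomes in GRCm38. The PRC2 genes are Ezh2 (chr6:47530139-47595341, minus strand), Ezh1 (chr11:101191115-101226463, minus), Eed (chr7:89954654-89980983, minus), Suz12 (chr11:79993106-80034123, plus), Mtf2 (chr5:108065674-108109004, plus) and Jarid2 (chr13:44729474-44921643, plus). The PRC1 genes are Rnf2 (chr1:151458004-151500955, minus), Ring1 (chr17:34020792-34024680, minus), Cbx7 (chr15:79915807-79971119, minus) and Pcgf6 (chr19:47033617-47050906, minus). RefSeq start-site windows, from 250 bases before to 50 bases after each annotated start, were found for all 10 genes (12 windows, GRCm38.p6). Most were CpG-rich. Suz12 had 41 CpG dinucleotides in its window, Ring1 37, Ezh2 31 and Pcgf6 22, against a median of 7 over the 32851 RefSeq windows.

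Short motifs were searched in these windows on both strands, with the motifs chosen after the data were seen. The E2F motif TTTGGCGC, read by cell cycle factors, was in 0.514% of all windows and in 1 of the 10 genes, Ezh2. The E2F variant TTTCGCGC (0.323% of windows), the octamer ATGCAAAT that Oct4 binds (1.74%) and the E-box CACGTG (7.15%) were in the windows of 0 of the 10 genes, which says only that these letters are not in these windows. Both stretches below are shown as 5′ to 3′ sequence on the gene's own strand. The first is the Ezh2 match (chr6:47595009-47595038, minus strand), with the E2F letters in capitals, shown because Ezh2 was the most abundant of the 10 transcripts. The second is the 250 bases before the Pcgf6 start (chr19:47050907-47051156, minus strand), with its 14 CpG dinucleotides in capitals, shown because Pcgf6 had the smallest p of the 10 genes.
Ezh2 match: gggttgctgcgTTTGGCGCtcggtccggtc
Pcgf6 upstream: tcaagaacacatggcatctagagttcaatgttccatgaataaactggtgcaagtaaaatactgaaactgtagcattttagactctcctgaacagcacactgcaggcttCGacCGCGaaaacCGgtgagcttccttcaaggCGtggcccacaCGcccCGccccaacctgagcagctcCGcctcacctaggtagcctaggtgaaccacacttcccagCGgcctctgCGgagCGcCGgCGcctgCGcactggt

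All 10 Polycomb subunits were expressed in every embryo and passed the filter on low counts, and none passed the test for a change between SO− and SO+. With edgeR's quasi-likelihood test and Benjamini-Hochberg adjustment over 12067 genes, 0 of the 10 had an adjusted p under 0.05, against 2.35% of all genes tested (283 genes: 1.42% higher and 0.928% lower in SO−). The smallest adjusted p among them was 0.364. DESeq2 and limma-voom also called 0 of the 10, with smallest adjusted p of 0.618 and 0.414, where they called 2.54% and 0.754% of all genes tested. Further, 0 of the 10 reached an unadjusted p of 0.05 with any of these 3 tools, against 13.7% of all genes with edgeR. The median log2 fold change of the 10 genes was -0.10 (4 above and 6 below 0), against -0.00187 over all genes tested. Their summed level was 839 and 941 CPM in SO+ and 859, 826 and 893 CPM in SO−, with the SO− embryos between or just below the SO+ pair.

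The precision differed between the genes. The 95% confidence interval of the fold change (SO− over SO+) lay within 2-fold in either direction for 9 of the 10 genes, and within 1.5-fold for 6. Ring1, the least abundant, was the exception at 2-fold, with an interval from 0.75 to 2.19.

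**Figure D1:**
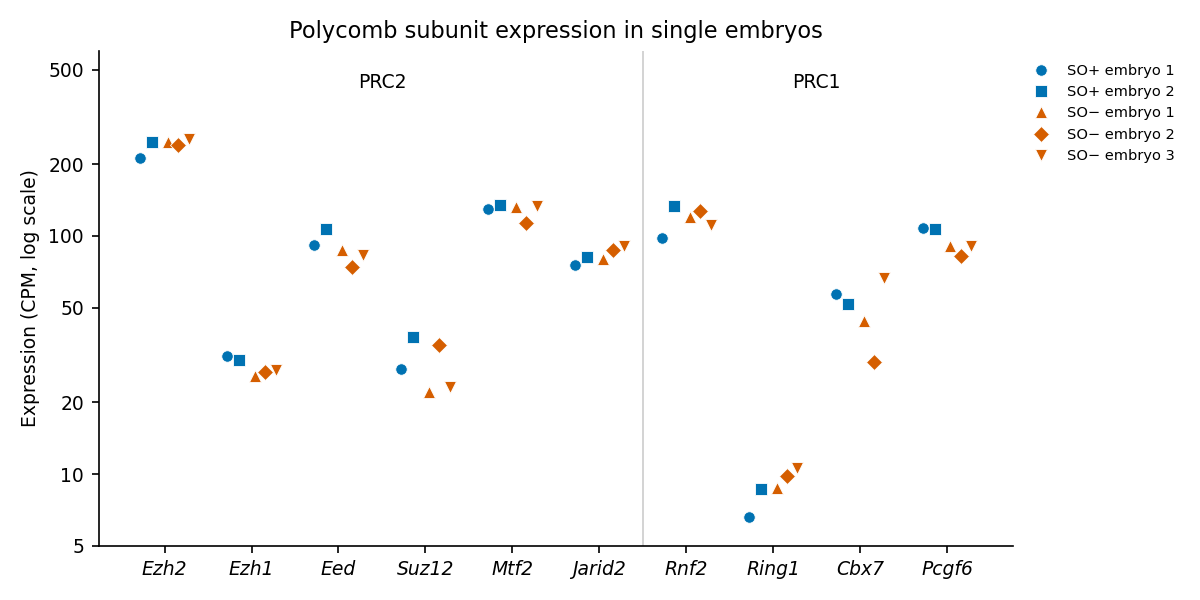
Expression of the 10 Polycomb subunits in each embryo, in TMM-scaled CPM on a log axis, with 1 point per embryo (blue, SO+; orange, SO−). Ezh2 stood at 213 to 256 CPM and Ring1 at 6.57 to 10.6 CPM, and in 6 of the 10 genes the points of the genotypes overlapped.

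Ezh2, the main histone H3 lysine 27 methyltransferase of dividing cells, was the most abundant of the 10 transcripts. It was at 213 and 249.1 CPM in SO+ and at 248, 242 and 256 CPM in SO−. The SO− embryos lay within or just above the SO+ range, and the log2 fold change was 0.11 (SE 0.11, edgeR adjusted p = 0.765). Ezh1, the paralog that prevails in non-dividing cells, was at 31.3 and 29.99 CPM in SO+ and at 25.8, 26.8 and 27.2 CPM in SO−. All 3 SO− embryos were below both SO+ embryos, yet the difference of -0.20 (SE 0.19, adjusted p = 0.736) was about the size of its error.

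Eed, which binds the methylated histone tail and stimulates the enzyme, was at 91.3 and 107 CPM in SO+ and at 87.5, 74.1 and 83.0 CPM in SO−. The groups did not overlap, and the log2 fold change was -0.27 (SE 0.14, adjusted p = 0.439). Suz12, the scaffold of PRC2, was at 27.7 and 37.6 CPM in SO+ and at 22.2, 34.8 and 23.2 CPM in SO−. Embryos of each genotype differed from each other as much as the genotypes did (log2 fold change -0.36, SE 0.24, adjusted p = 0.588). Transcripts of the 3 core subunits were not equal per kilobase of exon. The Ezh2 to Eed ratio was 1.34 in both SO+ embryos and 1.62, 1.87 and 1.77 in the SO− embryos. The ratios to Suz12 overlapped between genotypes. Ezh2 to Suz12 was 5.70 and 4.91 in SO+ and 8.27, 5.15 and 8.20 in SO−. Eed to Suz12 was 4.26 and 3.67 in SO+ and 5.10, 2.75 and 4.63 in SO−. None of these differences was tested.

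The accessory subunits divide PRC2 into alternative forms. Mtf2, a Polycomb-like protein that brings PRC2.1 to unmethylated CpG islands, was at 129.7 and 134 CPM in SO+ and at 133, 113 and 134 CPM in SO−. SO− embryo 2, the shallowest library, was the lowest and the other 4 embryos were nearly level. Jarid2, a catalytically inactive member of the Jumonji family that belongs to PRC2.2, was at 75.3 and 81.9 CPM in SO+ and at 80.4, 87.5 and 90.9 CPM in SO−. The ranges overlapped, and the log2 fold change was 0.13 (SE 0.14, adjusted p = 0.765). For Mtf2 it was -0.05 (SE 0.12, adjusted p = 0.932).

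Among the PRC1 genes, Rnf2 (also named Ring1b), the main H2A ubiquitin ligase of the early embryo, was at 98.4 and 134 CPM in SO+ and at 119.9, 127 and 111 CPM in SO−. All SO− embryos lay between the SO+ pair (log2 fold change 0.03, SE 0.15, adjusted p = 0.972). Its paralog Ring1 was at 6.57 and 8.61 CPM in SO+ and at 8.77, 9.82 and 10.6 CPM in SO−, from 181 and 232 counts and from 36, 11 and 44 counts. The SO− embryos were all higher, SO− embryo 1 by little, and the log2 fold change was 0.36 (SE 0.36, adjusted p = 0.753).

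Cbx7, the chromodomain subunit that reads methylated H3 lysine 27 in canonical PRC1, varied most between embryos, with a coefficient of variation of 28.1%. It was at 57.1 and 51.9 CPM in SO+ and at 43.8, 29.4 and 66.3 CPM in SO−. The lowest and the highest of the 5 embryos were both SO− (log2 fold change -0.16, SE 0.24, adjusted p = 0.859). Pcgf6, which defines a variant PRC1 that works with Mga and L3mbtl2, was at 108 and 107 CPM in SO+ and at 91.1, 82.1 and 91.2 CPM in SO−. The groups did not overlap, and the log2 fold change was -0.27 (SE 0.13, unadjusted p = 0.0502, edgeR adjusted p = 0.364).

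In 3 of the 10 genes (Ezh1, Eed and Pcgf6) every SO− embryo was below every SO+ embryo, and in 1 (Ring1) every SO− embryo was above. Of all genes tested, 15.1% were lower and 14.2% higher without overlap, so 4 of 10 compares with 29.3% of all genes in either direction.

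Per kilobase of exon, which allows levels to be compared between genes, the order over the 5 embryos was Ezh2 (36.2 ± 2.498 CPM per kb, SD, n = 5), Rnf2 (28.6 ± 3.37), Eed (23.1 ± 3.14), Mtf2 (22.6 ± 1.55), Pcgf6 (19.1 ± 2.22), Jarid2 (8.56 ± 0.629), Cbx7 (7.66 ± 2.15), Suz12 (5.88 ± 1.39), Ezh1 (3.79 ± 0.312) and Ring1 (2.74 ± 0.470). Neighbours in this order overlapped in their ranges except at Pcgf6 over Jarid2, Suz12 over Ezh1 and Ezh1 over Ring1. Ezh2 was above Rnf2 in 5 of 5 embryos although their ranges overlapped.

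Some of these counts may include reads of neighbours. Exons of Cbx7 overlap those of Apobec3 on the opposite strand (3459 and 4103 counts over the 5 embryos), those of Mtf2 overlap Tmed5 (8424 and 2193 counts) and those of Rnf2 overlap Trmt1l (7418 and 2958 counts). The library kit does not mark strand, so reads in the shared stretches cannot be assigned. For Ezh2, Eed and Suz12 the opposite-strand genes held 74, 33 and 40 counts in all.

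The share of a subunit within its family does not depend on the scaling between libraries. With 2 and 3 embryos an exact permutation test over the 10 splits cannot go below p = 0.1, and each p below is two-sided. Ezh2 made up 88.4% and 90.2% of the length-scaled Ezh1 and Ezh2 counts in SO+ and 91.4%, 91.0% and 91.3% in SO−. It was higher in 3 of 3 SO− embryos by 1.93 percentage points (exact p = 0.1, Benjamini-Hochberg adjusted over 5 shares 0.25). The difference was 0.984 points without SO+ embryo 1 and 2.88 points without SO+ embryo 2. Rnf2 made up 92.2% and 92.4% of Ring1 and Rnf2 in SO+ and 91.5%, 91.0% and 89.1% in SO−, a difference of -1.76 points (exact p = 0.2, adjusted 0.333), which ranged from -2.22 to -1.05 points with an embryo left out, the latter without SO− embryo 3. Both families were thus dominated by the same paralog in all 5 embryos.

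Pcgf6 made up 46.8% and 43.9% of the 6 Pcgf genes in SO+ and 37.1%, 35.3% and 39.0% in SO−, the widest gap of these shares at -8.24 points (exact p = 0.1, the smallest possible; adjusted 0.25). The groups did not overlap, and the difference remained between -6.78 and -9.69 points when each embryo was left out. Of the other Pcgf genes, Bmi1 (Pcgf4), of canonical PRC1, took 6.3% and 7.7% in SO+ and 13.7%, 16.5% and 9.1% in SO−, and Pcgf3 took 10.03% and 12.1% in SO+ and 13.5%, 17.0% and 13.4% in SO−. Neither gene passed the threshold by itself (Bmi1 log2 fold change 0.86, adjusted p = 0.174; Pcgf3 0.38, adjusted p = 0.35). Pcgf1 stayed between 10.5% and 11.3% in the 5 embryos, Pcgf2 between 10.96% and 21.2% and Pcgf5 between 5.8% and 9.6%.

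**Figure D2:**
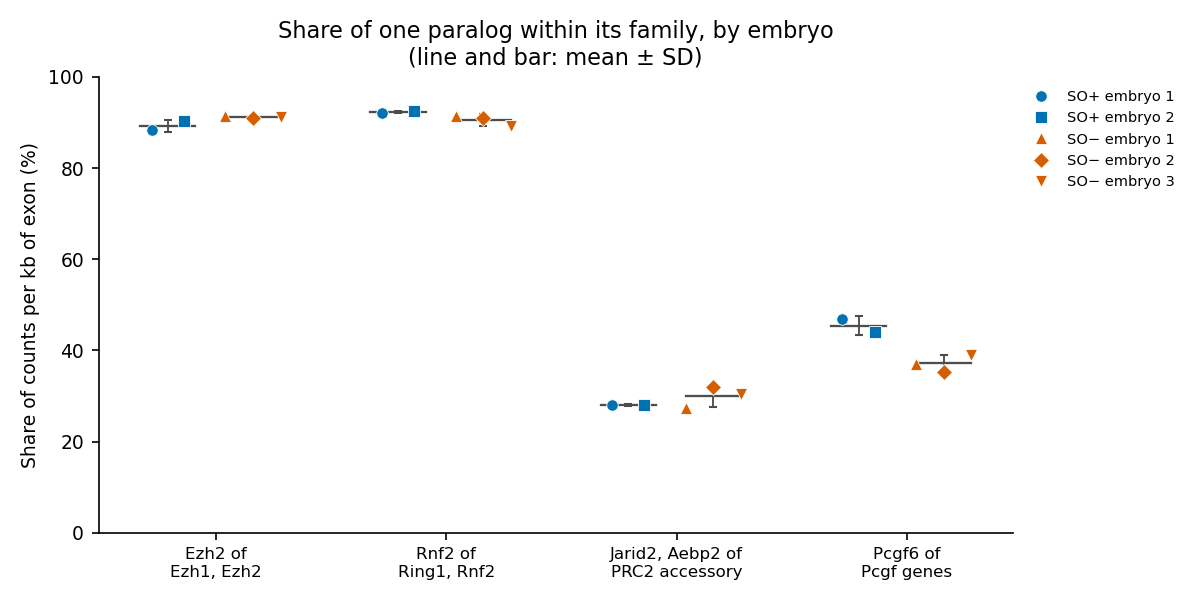
Share of each subunit within its family in each embryo, in percent of counts per kb of exon, with lines and bars for mean ± SD (blue, SO+, n = 2; orange, SO−, n = 3). The Pcgf6 share was 43.9% and 46.8% in SO+ and 35.3% to 39.0% in SO−, while the Jarid2 and Aebp2 share overlapped between genotypes.

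The form of PRC2 was compared in the same way, and the genotypes overlapped. Jarid2 and Aebp2 (PRC2.2) together made 28.1% and 27.9% of the accessory subunits in SO+ and 27.4%, 32.0% and 30.5% in SO− (difference 1.97 points, exact p = 0.4, adjusted 0.5). The difference was 3.25 points without SO− embryo 1 and 0.96 points without SO− embryo 2. Mtf2 held 64.8% to 68.8% in the 5 embryos, with Phf1 and Phf19 at 3.0% or less.

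The wider Polycomb machinery was examined through 42 partner genes, of which 40 were tested. In it 2 genes rose and 1 fell, or 7.5% of those tested against 2.35% of all genes. The share includes Scml2, which is low enough in SO+ to have passed the filter only through the SO− embryos, so it is not evidence about the partners as a set. The median log2 fold change of the 40 genes was -0.05. Cbx8 and Asxl3 were too low to test.

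Phc1, a Polyhomeotic protein whose SAM domain polymerises canonical PRC1, fell to 0.441 of its SO+ level (95% interval 0.335 to 0.58). It was at 367 and 269 CPM in SO+ and at 114, 121 and 181 CPM in SO−. All SO− embryos lay well below both SO+ embryos (log2 fold change -1.18, SE 0.18, edgeR adjusted p = 0.00408). Without SO− embryo 1 the adjusted p was 0.0983 and without SO− embryo 2 it was 0.163, with fold changes of -1.05 and -1.11. The 8 epiblast markers, a set that includes the deleted Pou5f1, had a median log2 fold change of -0.62, with 6 below 0. Pou5f1, Dnmt3b and Utf1 passed the threshold, while Sox2 and Fgf5 had values above 0. The fall of Pou5f1 was set by the design, so it does not speak to epiblast content. The part of epiblast content in the Phc1 value was not tested. Its paralog Phc2 was at 8.89 and 6.87 CPM in SO+ and at 12.2, 17.0 and 18.3 CPM in SO− but did not pass (0.99, SE 0.33, adjusted p = 0.172). The Phc1 to Phc2 ratio per kilobase was 55.1 and 52.3 in SO+ and 12.5, 9.55 and 13.2 in SO−. The other paralog, Phc3, was lower in every SO− embryo than in either SO+ embryo but did not pass (-0.49, SE 0.27, adjusted p = 0.463). The Phc1 to Phc3 ratio was 74.7 and 44.4 in SO+ and 32.8, 28.1 and 44.2 in SO−, a much narrower separation. Neither difference in ratio was tested.

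Rbbp7, a histone-binding WD40 protein of PRC2 that is also part of other chromatin complexes, rose. It was at 528 and 587 CPM in SO+ and at 800.0, 792 and 719 CPM in SO− (log2 fold change 0.47, SE 0.10, edgeR adjusted p = 0.0274). The call was lost without SO+ embryo 1 (0.189), SO− embryo 1 (0.281) or SO− embryo 2 (0.195). Its close paralog Rbbp4 was at 895 and 941 CPM in SO+ and at 769.5, 763 and 805 CPM in SO− and did not pass (-0.24, SE 0.09, adjusted p = 0.239). Rbbp7 shares a stretch of 942 bases at 97.1% identity with the pseudogene Gm6382, which held 154 counts against 37530 for Rbbp7, and its exons overlap Txlng (3425 counts) on the opposite strand.

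Scml2, an SAM- and MBT-domain protein that associates with PRC1, was very low in SO+ and higher in SO−. It passed the filter on low counts only through the SO− embryos, so its call is not evidence of a rise. It had 25 and 24 counts in SO+ (0.907 and 0.891 CPM) and 27, 10 and 16 counts in SO− (6.58, 8.92 and 3.86 CPM), with a log2 fold change of 2.76 (SE 0.64, edgeR adjusted p = 0.0414). The call was lost when any embryo other than SO− embryo 3 was left out, with adjusted p between 0.0986 and 0.269. Rbbp7 and Scml2 are both on the X chromosome. So are the partners Bcor (log2 fold change -0.63), Bcorl1 (-0.07), Hcfc1 (0.16) and Ogt (-0.06), which did not pass. The Y-linked Ddx3y was present in every embryo, at 37.2 to 52.8 CPM, as were the Y-linked Eif2s3y (61.3 to 89.9 CPM) and Uty (12.8 to 25.9 CPM). Xist, the RNA that coats an inactive X chromosome, was uneven, at 1.45 and 8.76 CPM in SO+ and at 1.22, 4.46 and 18.8 CPM in SO−.

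The other partners did not pass. Bcor, the corepressor of the Pcgf1 form of PRC1, was nearest to the threshold and is named for that after its values were seen: it was at 78.3 and 78.6 CPM in SO+ and at 50.7, 58.9 and 45.1 CPM in SO− (log2 fold change -0.63, SE 0.15, adjusted p = 0.0523). DESeq2, which called 2.54% of all genes it tested, called it together with Phc1, Rbbp7 and Scml2. Limma-voom called 0 of the 40 partners, against 0.754% of all genes tested. In PR-DUB, the deubiquitinase that removes the PRC1 mark from H2A, 0 of 9 tested genes passed with edgeR, against 2.35% of all genes. The smallest p belonged to the scaffold Asxl2 (-0.25, SE 0.17, adjusted p = 0.595).

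**Figure D3:**
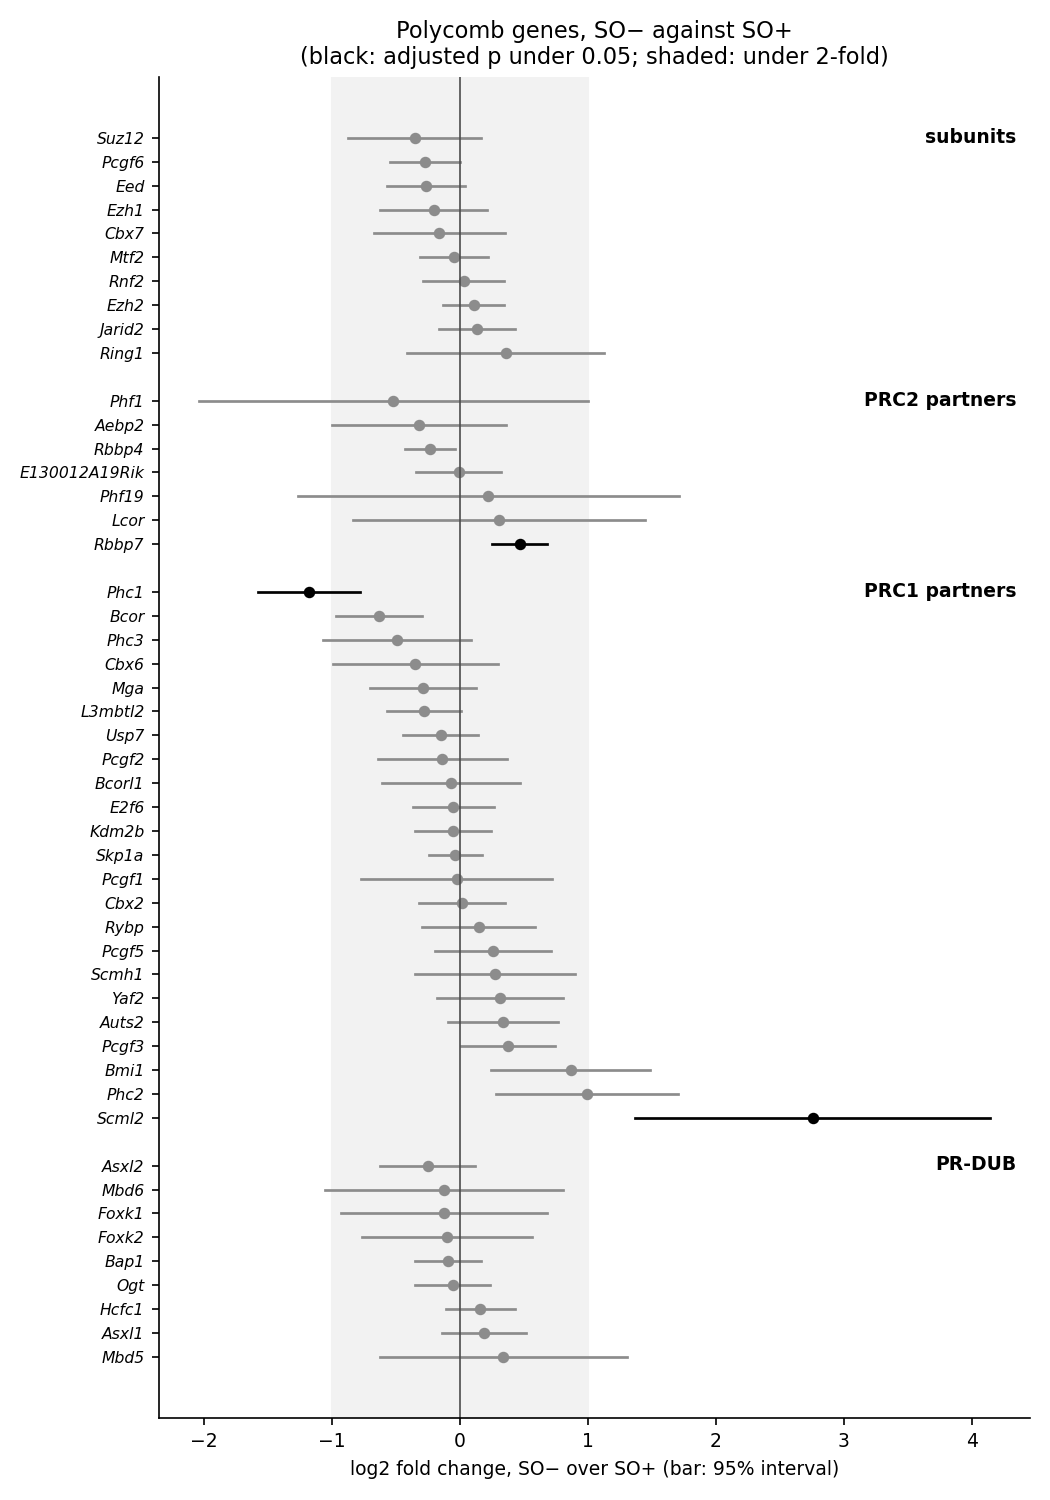
Log2 fold change (SO− over SO+) of the Polycomb subunits and of tested partners with 95% confidence intervals; black marks an adjusted p under 0.05 and the shaded band spans 2-fold in either direction. The 10 subunits lay between -0.36 and 0.36, while Phc1 stood at -1.18, Rbbp7 at 0.47 and Scml2 at 2.76. Scml2 passed the filter on low counts only through the SO− embryos.

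No listed gene of the machinery that opposes Polycomb passed the test for a change. Of 16 Trithorax subunits and H3 lysine 27 demethylases, all tested, 0 passed the edgeR threshold (0 also at an unadjusted p under 0.05, and 0 by DESeq2 or limma-voom), against 2.35% of all genes (13.7% unadjusted), with log2 fold changes from -0.48 to 0.47 and a median of -0.05. Paxip1, an adaptor of the Kmt2c and Kmt2d methyltransferases, had the smallest p, at 118 and 109 CPM in SO+ and 92.6, 94.6 and 97.2 CPM in SO− (-0.26, SE 0.12, adjusted p = 0.377). The demethylases Kdm6a and Kdm6b were at -0.11 (adjusted p = 0.896) and 0.33 (adjusted p = 0.595).

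Genes that Polycomb is known to silence were mostly low: of 72 listed, 25 had no count in any embryo and 11 passed the filter for testing. Of 39 Hox genes, 22 had no count in any embryo, the highest value of any was 2.92 CPM, and none passed the filter for testing. A Hox gene with 0 counts could still have been present at up to 0.109 CPM in SO+ embryo 1 and 2.68 CPM in SO− embryo 2. Of 33 other classical targets, 11 passed the filter, and Isl1 was among those that rose. Because a low gene passes that filter through the group in which it is higher, the count over the tested targets is not evidence of a direction.

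Isl1, a LIM homeodomain factor of cardiac and motor neuron progenitors, rose from 6.86 and 8.61 CPM in SO+ to 25.1, 30.3 and 27.7 CPM in SO− (log2 fold change 1.82, SE 0.26, edgeR adjusted p = 0.00237). The groups were far apart, and of the embryos left out in turn, the call was lost only without SO− embryo 2 (adjusted p = 0.0674). Msx1, named after its values were seen, was at 36.9 and 77.6 CPM in SO+ and 145, 169 and 79.8 CPM in SO− and did not pass (1.16, SE 0.31, adjusted p = 0.0787). Gata4 and Gata6, which the VE also expresses, were highest in SO− embryos 1 and 2, the embryos with the highest VE marker sums (Gata4 0.38, adjusted p = 0.499; Gata6 0.84, adjusted p = 0.361). The part of the VE in these target values was not tested.

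**Figure D4:**
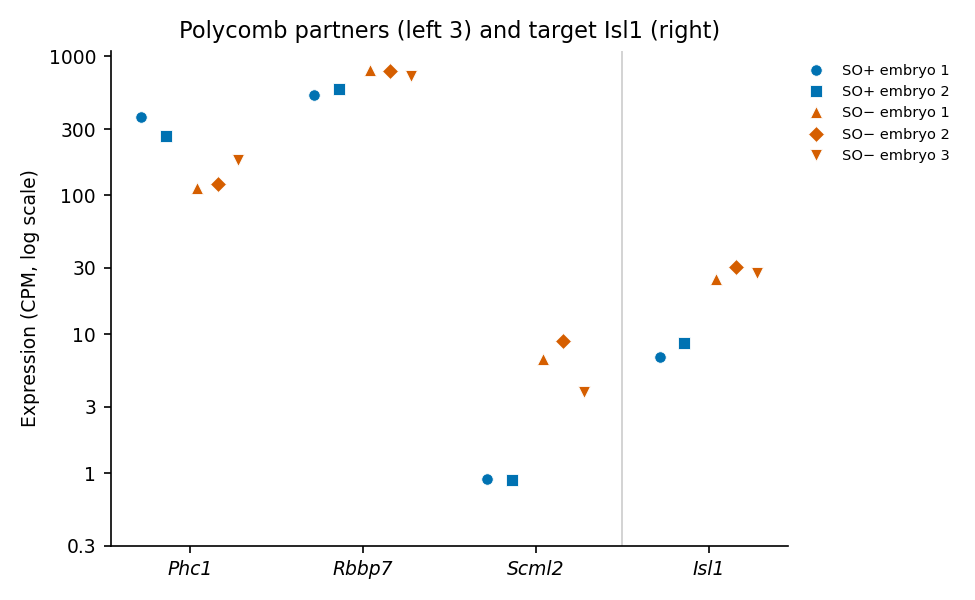
Expression of the 3 Polycomb partners past the threshold and of the Polycomb target Isl1, in TMM-scaled CPM on a log axis, with 1 point per embryo (blue, SO+; orange, SO−). Phc1 was lower in all 3 SO− embryos, and Rbbp7, Scml2 and Isl1 were higher in all 3. Of these, Scml2 passed the filter on low counts only through the SO− embryos.

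Proliferation genes were compared because Ezh2 follows cell division in many tissues. The 15 cell cycle genes summed to 8138 and 7851 CPM in SO+ and to 7322, 7144 and 7528 CPM in SO−, and 0 of the 15 passed the threshold, against 2.35% of all genes. An unadjusted edgeR p under 0.05 was found for 5 of the 15, against 13.7% of all genes. These were Mcm2 (log2 fold change -0.36), Mcm3 (-0.28), Mcm4 (-0.31) and Mcm5 (-0.29), all lower, and Mki67 (0.33), higher. Without overlap between genotypes, 8 of the 15 were lower and 2 higher in SO−, against 15.1% and 14.2% of all genes. The genes whose profile over the 5 embryos was closest to that of Pcgf6 were Ranbp3, Exosc3 and Lonp1, with root mean square differences of 0.0208, 0.0216 and 0.022 on the log2 scale. Exosc3, for example, was at 54.2 and 52.2 CPM in SO+ and at 45.8, 41.1 and 46.8 CPM in SO−.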

How the data were processed

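Poly(A) RNA of single embryos was amplified with SmartSeq2 and sequenced, 1 library per embryo (2 SO+, 3 SO−, grouped by the sample labels). By the authors' account, reads were adapter-trimmed (cutadapt 1.12), mapped on GRCm38/mm10 (STAR 2.5.2a) and assigned to Ensembl 87 genes (HTSeq-count), and the deposited values are raw whole-number counts. Strand setting and duplicate removal are not given in the sources used here, and the kit has no molecular identifiers.

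Counts were tested in R 4.3.3 with edgeR 4.0.16 (TMM, filterByExpr, quasi-likelihood F test, genotype as only term; Benjamini-Hochberg over 12067 genes, threshold 0.05). SEs were derived from the F statistic (|log2 fold change| over its square root), and 95% intervals use the residual and prior degrees of freedom of the fit. Profiles were compared on log2(CPM + 1). Exon lengths and coordinates came from GENCODE M21 (GRCm38, 99.3% of genes matched), motifs and start windows from RefSeq (GRCm38.p6), and near-identical stretches (at least 150 bases at 95% identity) from BLAST 2.17.0. The scripts were tested on simulated data. Alternatives were DESeq2 1.42.0, limma-voom 3.58.1, RLE scaling and library totals, other filters, thinned SO+ libraries (10 draws), a replicate block and each embryo left out. The labels name separate embryos, but p-values measure only the spread between these samples. The subunits and gene lists were chosen with earlier results of these data known. Named genes are the subunits, their paralogs in shares, Pou5f1, listed genes past the threshold, the gene with the smallest p of each list without any, and the 3 profiles closest to the subunit with the smallest p; others were named after their values were seen. A few listed genes, and a share that needs them, enter the counts but are not reported here.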

Additional observations from a re-analysis of the deposited data

How the results depend on the processing

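None of the 10 Polycomb subunits was called under any of the 13 alternatives, and 0 Trithorax or demethylase genes were called. The number of partner genes called was 3, and it was 0 with limma-voom and between 0 and 3 when each embryo was left out. The number of target genes called was 2, and it was 7 with the replicate block and between 0 and 5 when each embryo was left out. The direction of small differences was not stable: the log2 fold change of Rnf2 was -0.0074 without a filter on low counts, and leaving out an embryo gave ranges of -0.185 to 0.264 for Rnf2, -0.0058 to 0.221 for Ezh2, -0.096 to 0.0094 for Mtf2 and -0.515 to 0.0137 for Cbx7; the cause was not tested. Phc1 (adjusted p = 0.0729), Rbbp7 (0.0611), Scml2 (0.0806) and Pou5f1 (0.0639) passed the threshold with edgeR but not with limma-voom, and Scml2 did not after the SO+ counts were thinned to SO− depth (adjusted p = 0.0555), where its log2 fold change was 2.86 against 2.76. Over all genes the replicate block called 929 genes against 283, limma-voom 91, and leaving out an embryo 35 to 573. The embryos are different animals, and the labels do not say whether equal replicate numbers pair them. Correlations of same-numbered deviations were 0.0077 and 0.115, for 2 pairs only. With 2 SO+ embryos the deviations of 1 mirror those of the other, so these values cannot decide it. The block called 0 of the 10 subunits, 4 of 40 partners tested and 7 of 11 targets tested, against 929 of all 12067 genes. The main fit called 2 of 11 targets, against 283 of 12067 genes. Between 14 and 20 targets were tested when each embryo was left out. A low target passes the filter through the group in which it is higher, so these target counts are not evidence of a direction. Share differences kept their sign without length scaling and with each embryo left out. The shallowest library, SO− embryo 2, limits the low genes most.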
